A study of Mus musculus with 95 samples.

Results

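Immunoglobulin and plasma cell genes were followed in the kidneys of SNF1 mice, which are hybrids of the SWR and NZB strains, through 7 genes: Jchain, Igkj1, Ighg1, Ighm, Pou2af1, Mzb1 and Sdc1. Probe sets that carry only 1 of these symbols were taken, which gave 7 of 17078 represented genes and 15 of the 45037 probe sets tested, namely 7 for Ighm, 3 for Sdc1 and 1 for each other gene. The array annotation used here named 4 of the 15 (Jchain, Igkj1, Pou2af1 and 1 of Ighm). A table of blood genes from the study, which is held in part in the order of the probe sets, named 2 of Sdc1. The other 9, among them Ighg1, Mzb1 and 6 of Ighm (listed as Igh-6), were named only by the study's table of kidney genes, which is held in part with the genes changed at week 14 first. These 9 may therefore have been named through their week 14 difference, so their week 14 values are given as a description without a test, and counts of week 14 tests are out of 6.

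All mice were females of the same strain, and each of the 95 arrays held the kidney RNA of 1 mouse. Untreated mice, age-matched and labelled as without treatment, numbered 7 at the start (week 0), 10 at week 2, 9 at week 4, 10 each at weeks 8 and 12, and 5 at week 14. The other mice received pristane, a hydrocarbon oil that accelerates lupus-like disease, into the peritoneum at 9 weeks of age and numbered 9 at week 2, 10 at week 4, 8 each at weeks 8 and 12, and 9 at week 14. The study ran its time course in independent experiments, and the labels do not tell which array belongs to which, so a batch could not be separated from week or treatment. Values are log2 after RMA, with a floor of 2.21 that holds 18.6% of all values. Array medians ranged from 4.22 to 4.57, and the number of arrays limits the precision. The kidney gene Umod, which encodes uromodulin, had medians of 13.22 to 13.42 in the untreated and pristane groups of weeks 12 and 14. Week 0 arrays stand apart, since 28.8% of all probe sets differed between untreated weeks 2 and 0. The comparison of untreated weeks 14 and 0 is therefore given with week 2 in place of week 0 as well.

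Plasma cells are the end stage of B cells and release antibodies built from paired heavy and light chains. The J chain joins IgM or IgA units into polymers before release. Pou2af1 is a coactivator that B lineage cells recruit to the octamer sites of immunoglobulin promoters, Mzb1 is a chaperone of the endoplasmic reticulum that helps IgM assembly, and Sdc1, or CD138, is the surface proteoglycan by which plasma cells are sorted, although epithelial cells also make it. In lupus nephritis, antibodies deposit in glomeruli and antibody-secreting cells can settle in the inflamed kidney. In whole kidney RNA, more cells of a type and more RNA per cell cannot be told apart.

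The promoters of Jchain and Pou2af1 are shown because these genes followed the 2 courses described next. The sequences are the 250 bases before the RefSeq start in GRCm38.p6, and capitals mark TGCAAAT, which is 7 of the 8 letters of the octamer ATGCAAAT. Jchain lies at chr5:88527898-88528147 on the minus strand and Pou2af1 at chr9:51213440-51213689 on the plus strand.
Jchain: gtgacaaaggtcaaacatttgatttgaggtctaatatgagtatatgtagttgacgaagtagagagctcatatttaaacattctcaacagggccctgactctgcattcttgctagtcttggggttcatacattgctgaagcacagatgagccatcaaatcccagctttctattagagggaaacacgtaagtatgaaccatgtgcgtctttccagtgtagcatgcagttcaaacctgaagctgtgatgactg
Pou2af1: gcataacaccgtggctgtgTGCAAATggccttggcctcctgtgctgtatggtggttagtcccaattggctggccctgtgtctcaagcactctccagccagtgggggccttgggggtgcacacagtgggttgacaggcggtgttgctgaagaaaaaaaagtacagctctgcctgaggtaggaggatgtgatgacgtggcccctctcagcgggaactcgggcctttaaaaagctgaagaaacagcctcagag
The 7 letters begin 231 bases before the start of Pou2af1 and were searched on both strands, as ATTTGCA on the other. They occur in 3.56% of 32851 RefSeq promoters of this length, and the whole octamer occurs in 1.6%. Neither was found in the window of Jchain or in that of Sdc1.

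The first course was that of Jchain and Igkj1, which climbed in untreated kidneys as well as after pristane. Igkj1 is a joining segment of the kappa light chain locus (chromosome 6, 70722562 to 70722599, GRCm38), and its probe set can share sequence with other kappa transcripts, so it is read as kappa light chain RNA of unknown gene. In untreated kidneys, the 7 Jchain values of week 0 ran from 5.36 to 5.52 with a median of 5.43, and some repeated exactly between mice. At week 2 the values ran from 5.43 to 9.19 around 7.20, and at week 4 from 6.02 to 8.63 around 7.60. At week 8 they ran from 7.19 to 10.07 around 8.67 and at week 12 from 8.59 to 11.82 around 9.95. The 5 untreated kidneys of week 14 had 11.36, 9.32, 10.81, 11.32 and 11.02. The median thus moved up at each step, while the ranges of neighbouring weeks overlapped.

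Igkj1 had the same order of untreated weeks. Its medians were 3.18, 5.66, 6.58, 7.86, 8.98 and 10.43 from week 0 to week 14. Its lowest untreated value at week 14, 8.59, was above the highest at week 2, 8.07. Between untreated weeks 14 and 0, Igkj1 rose by 6.91 (standard error 0.329, adjusted p = 2.41e-05) and Jchain by 5.31 (standard error 0.304, adjusted p = 3.13e-05) on the log2 scale. Week 0 values of both genes repeat between mice and are narrowly spread (standard deviation 0.141 for Igkj1 and 0.0598 for Jchain). They may mark a lower limit of measurement, so the size and precision of these rises are uncertain. P-values are from limma, adjusted by Benjamini and Hochberg's method across the array. Of 6 tested probe sets 3 rose, against 8.78% of all probe sets called higher in this comparison. The third was Sdc1 by its brightest probe set, by 0.38 (standard error 0.0938, adjusted p = 0.0237), a call that was lost in 5 of 9 alternatives and without untreated mouse 1 of week 14 (adjusted p = 0.0556). With week 2 in place of week 0, a choice made after the data were seen, Igkj1 still rose by 4.61 and Jchain by 3.48 (adjusted p = 0.00148 and 0.00225, with 3.89% of all probe sets called), while Sdc1 had 0.08 (adjusted p = 0.8), so 2 of 6 rose.

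An F test over all untreated weeks called these 2 of the 6 (adjusted p = 3.02e-12 for Igkj1 and 5.61e-12 for Jchain, with 32.9% of all probe sets called). Jchain was already higher at week 2 than at week 0, by 1.83 (standard error 0.401, adjusted p = 0.000563), in the fit of all untreated weeks, in which 16.7% of all probe sets were higher at week 2. The step from week 0 cannot be told apart from whatever sets the week 0 arrays apart.

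After pristane, Jchain had medians of 7.71, 8.64, 9.99, 11.85 and 13.32 at weeks 2, 4, 8, 12 and 14. The 9 pristane kidneys of week 14 had 12.12, 10.71, 13.13, 13.34, 13.57, 13.32, 12.71, 13.56 and 13.44. Of these 9, 8 lay above all untreated kidneys of that week, and only pristane mouse 2 fell within the untreated range. Igkj1 medians after pristane were 6.37, 7.78, 9.81, 11.40 and 12.99. The highest values were 13.57 for Jchain and 13.60 for Igkj1.

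The pristane difference of Jchain was 0.36 (standard error 0.367) at week 2, 1.19 (standard error 0.419) at week 4, 1.41 (standard error 0.399) at week 8, 1.73 (standard error 0.407) at week 12 and 2.11 (standard error 0.496) at week 14. Only the last passed the test (adjusted p = 0.0281), as it did for Igkj1, at 2.55 (standard error 0.544, adjusted p = 0.0204). Inside the untreated group, the change from week 0 to week 14 was thus wider than the pristane difference at week 14. It was 5.31 against 2.11 for Jchain and 6.91 against 2.55 for Igkj1. Week 0 arrays stand apart, and from week 2 the untreated change was smaller, 3.48 for Jchain and 4.61 for Igkj1. The contrasts of time and of pristane share the untreated kidneys of week 14, and the difference between them was not tested. Whether the pristane effect itself grew was tested as the difference of effects at weeks 14 and 2, which was 1.75 for Jchain (standard error 0.609, adjusted p = 0.0581) and 1.63 for Igkj1 (standard error 0.761, adjusted p = 0.187). Neither passed.

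**Figure D1:**
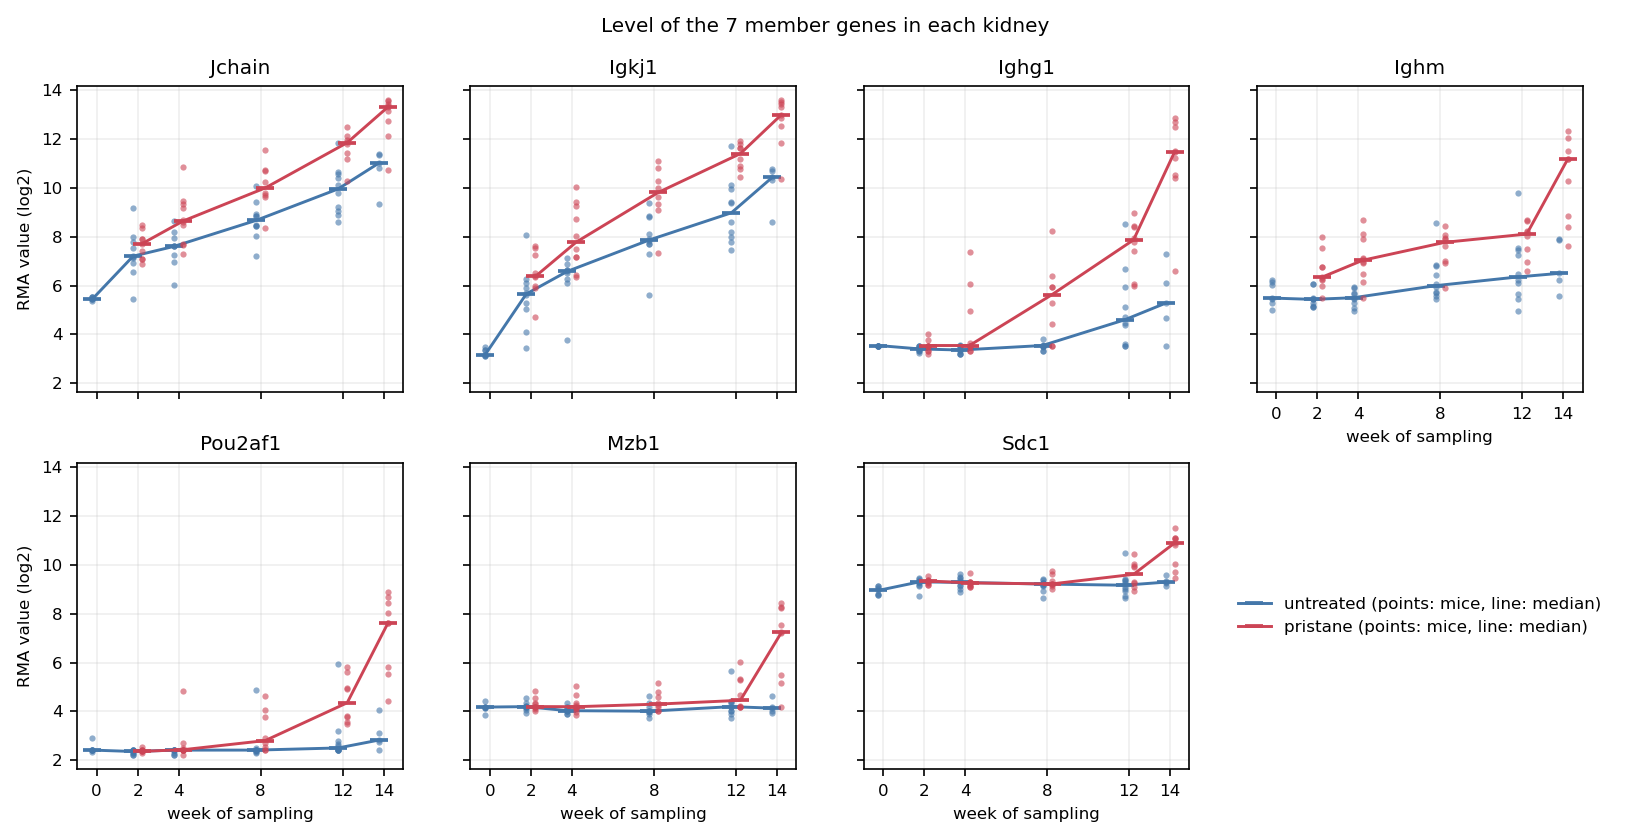
RMA values (log2) of the 7 genes by week of sampling, each gene by its brightest probe set; points are mice, bars and lines are medians, blue for untreated and red for pristane. Jchain and Igkj1 climb in both groups, Ighg1, Pou2af1 and Mzb1 climb late and mainly after pristane, and Sdc1 stays near 9 until week 8.

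The second course was a late climb, mainly after pristane, and was that of Ighg1, Pou2af1 and Mzb1. Ighg1 encodes the constant region of IgG1 (chromosome 12, 113326541 to 113330523). All 7 week 0 kidneys had the same value of 3.55, which 28 of the 95 arrays share and which lies above the lowest Ighg1 value, 3.21. In untreated kidneys the medians stayed at 3.41, 3.36 and 3.55 at weeks 2, 4 and 8 and were 4.60 and 5.28 at weeks 12 and 14. At week 12 Ighg1 was higher than at week 0 by 1.51 (standard error 0.41, adjusted p = 0.00743, with 7.48% of all probe sets called higher), as were 5 other probe sets of the 15.

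After pristane, Ighg1 was scattered between mice at the early weeks. At week 4, 7 of 10 pristane kidneys lay between 3.31 and 3.66, while mice 2, 5 and 10 had 4.94, 6.07 and 7.39. At week 8 the values were 6.37, 3.55, 5.93, 8.24, 5.30, 4.43, 3.55 and 5.93, and 6 of 8 lay above all untreated kidneys. At week 12 all 8 lay between 5.99 and 8.95, but only 1 of 8 lay above all untreated kidneys, whose highest value was 8.53. At week 14 the 9 values were 10.39, 6.58, 11.23, 12.70, 12.49, 11.52, 10.54, 12.86 and 11.47, against 7.29, 3.55, 6.12, 4.66 and 5.28 in untreated kidneys. As for Jchain, 8 of 9 lay above the untreated range of week 14, with pristane mouse 2 inside it. The week 14 difference was 5.70 (standard error 0.963), which is a description.

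Ighm encodes the constant region of IgM (chromosome 12, 113418826 to 113422730), and has 7 probe sets. It is not placed in the second course, since the pristane medians of its brightest probe set moved up at each step from week 2. The brightest, 1427351_PM_s_at, had an untreated median of 5.49 at week 0 and 6.50 at week 14. Its pristane medians were 6.34, 7.03, 7.77, 8.11 and 11.17. Its difference was already 1.14 (standard error 0.264, adjusted p = 0.106) at week 2, where 7 of 9 pristane kidneys lay above all untreated ones, and 1.59 (standard error 0.331, adjusted p = 0.0799) at week 4. Neither passed over all probe sets. Each passed in a single one of the fits that left out a mouse, and in none of the others. Without pristane mouse 2 of week 2 it was 1.28 (adjusted p = 0.0359, with 0.262% of all probe sets called) and without pristane mouse 1 of week 4 it was 1.77 (adjusted p = 0.00915, with 0.238% called).

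At week 14, the 6 Ighm probe sets that carry no test differed by 3.19 to 5.98. The widest was 1427870_PM_x_at, whose untreated kidneys had 4.12, 2.21, 4.04, 2.42 and 2.27. Its 9 pristane kidneys had 8.13, 4.37, 9.14, 10.74, 10.43, 9.48, 8.10, 11.48 and 9.08. The groups did not overlap, as for 2.02% of all probe sets in this direction. This probe set sat at the floor of the file, where values have no order, on 49 of 95 arrays. The Ighm probe set named by the annotation, 1452535_PM_at, shared 1 low value of 3.18 on 58 arrays. It had a pristane median of 6.30 and a highest value of 7.96 at week 14, and its difference of 2.22 did not pass (standard error 0.749, adjusted p = 0.0853). Several probe sets of Ighg1 and Ighm are of types that can share sequence between heavy chain genes, so the split between IgM and IgG is uncertain. Among other heavy chains, Igha lay at the floor, 2.21, in the medians of the groups of weeks 0, 12 and 14, and Ighd, Ighg2b, Ighg2c, Ighg3 and the kappa constant region Igkc were not named in the tables used here.

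**Figure D2:**
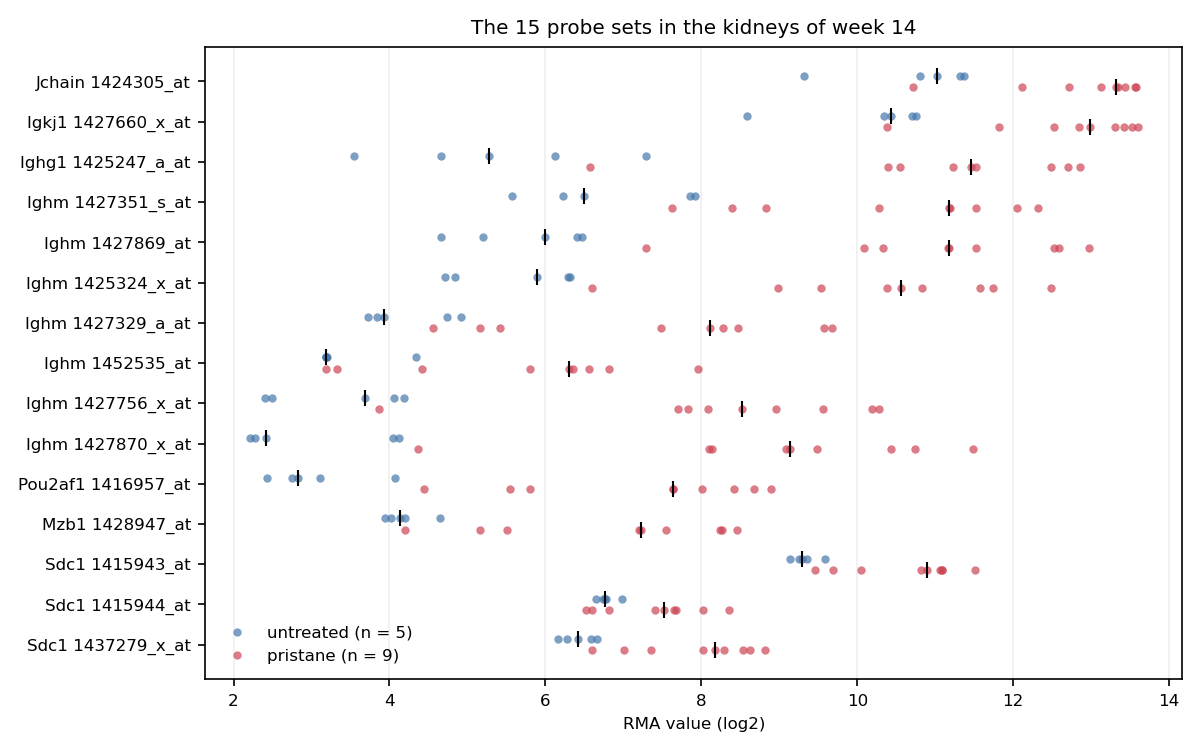
RMA values (log2) of the 15 probe sets in the kidneys of week 14, 1 point per mouse, with 5 untreated (blue) and 9 pristane mice (red) and black ticks at the medians. All 9 pristane kidneys lie above the untreated ones for Pou2af1 and for 3 probe sets of Ighm, as for 2.02% of all probe sets. Those 3 of Ighm may have been named through their week 14 difference. The lowest pristane point of most others falls inside the untreated range.

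Pou2af1 (chromosome 9, 51213690 to 51240079) had the lowest adjusted p of the 6 tested probe sets at week 14. Its untreated kidneys had 2.75, 2.43, 2.83, 4.07 and 3.11. Its pristane kidneys had 5.55, 4.44, 8.01, 8.68, 8.90, 7.63, 5.80, 7.64 and 8.42. The groups did not overlap, which 2.02% of all probe sets showed in this direction. Pou2af1 rose 18.3-fold, by 4.19 (standard error 0.731, adjusted p = 0.01), and 14 of 14 fits that left out 1 mouse kept it (adjusted p from 0.00117 to 0.0342). Its effect at week 14 exceeded that at week 2 by 4.14 (standard error 0.617, adjusted p = 0.000108), as did those of 2 other tested probe sets, where 5.77% of all were called higher. At week 12 the 8 pristane kidneys had 4.96, 3.76, 5.83, 4.90, 3.56, 5.61, 3.81 and 3.50, and 9 of 10 untreated kidneys had 2.41 to 3.20. The tenth, untreated mouse 2, had 5.94, above every pristane kidney of that week. At weeks 2 and 4 the medians were 2.36 to 2.43 in both groups, near the floor of 2.21, where an early rise may not show.

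Mzb1 had medians that ran from 4.01 to 4.20 in the 6 untreated groups and from 4.19 to 4.45 in the pristane groups of weeks 2 to 12. At week 14 the pristane kidneys had 5.51, 4.20, 7.23, 8.23, 8.45, 7.54, 5.16, 7.20 and 8.26, and the untreated ones 4.20, 3.94, 4.01, 4.65 and 4.13. The difference of 2.68 (standard error 0.692) is a description. The difference at week 12 was 0.47 (standard error 0.283, adjusted p = 0.827).

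Sdc1 (chromosome 12, 8771396 to 8793716) had medians of 8.95 to 9.34, by its brightest probe set, in the 6 untreated groups and in the pristane groups of weeks 2 to 8. At week 14 the pristane kidneys had 9.46, 9.69, 11.09, 11.51, 10.82, 11.08, 10.89, 10.05 and 11.06, against 9.58, 9.14, 9.29, 9.25 and 9.35. The rise was 1.30, or 2.47-fold (standard error 0.322, adjusted p = 0.0321). A second Sdc1 probe set, 1415944_PM_at, gave 0.61 (standard error 0.285, adjusted p = 0.215). Of 8 epithelial genes 1 rose beside it, the keratin gene Krt8, by 1.33 (standard error 0.371, adjusted p = 0.0471), and 7 did not pass, among them Krt18, at 1.51 (adjusted p = 0.0592), Epcam, at 0.26, and Cdh1, at 0.10. The mean level of the 8 genes ran from 7.82 to 8.50 in untreated and from 7.88 to 9.36 in pristane kidneys. The part of epithelial cells in the Sdc1 rise was not tested. Of the other syndecans and glypicans, 1 of 5 rose (Sdc2, by 0.31), and Sdc4 had a difference of -0.01. Over all probe sets, 4.57% were called higher at week 14.

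Of the 6 probe sets tested at week 14, 4 rose (Pou2af1, Igkj1, Jchain and 1 of Sdc1), against 4.57% of all probe sets called higher. All 15 had higher values, with a median difference of 3.19. This is a description, since 9 of the 15 may have been named through that difference. The count of called probe sets rests on single mice. It was 1 without untreated mouse 2 or 3, and 2 without untreated mouse 4 or 5 or without pristane mouse 3, 4, 6 or 9. Without pristane mouse 2 it was 5. The share of all probe sets called higher moved too, from 1.57% without untreated mouse 3 to 6.83% without pristane mouse 2. At weeks 2, 4, 8 and 12, 0 of 15 were called, where 0.231%, 0.124%, 0.0866% and 0.0244% of all probe sets were called higher. At week 12 all 15 nevertheless had higher values, from 0.01 to 2.57 with a median of 1.56, and the largest were those of Ighg1, at 2.57 (standard error 0.652, adjusted p = 0.338), and Igkj1, at 2.22 (standard error 0.489, adjusted p = 0.22). Without untreated mouse 2 of week 12, Igkj1 and Pou2af1 passed at 2.52 and 1.89 (adjusted p = 0.024 and 0.0491, with 0.0533% of all probe sets called). That kidney also had the lymph node vessel gene Glycam1 at 8.18, against 4.21 to 4.55 in the other 9, and the part of lymph node tissue in its member values was not tested. In a single fit of all 11 groups, 3 of the 6 were called at week 12, where 1.69% of all probe sets were called higher. The 8 of 15 called in that fit are a description, for the same reason as at week 14.

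**Figure D3:**
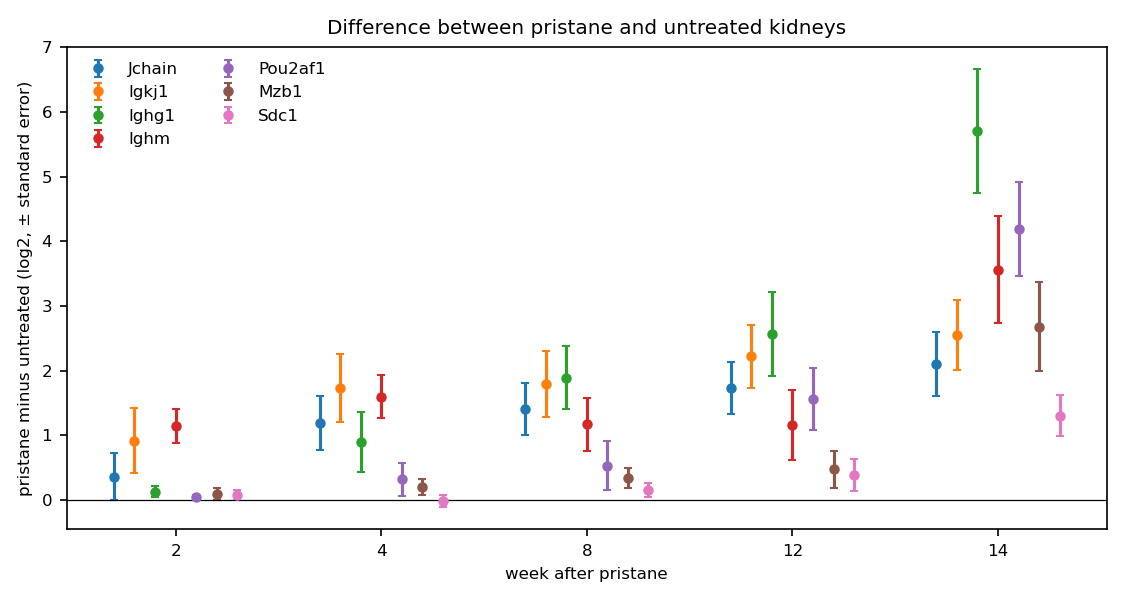
Difference between pristane and untreated kidneys (log2, limma estimate with its standard error) for each gene by its brightest probe set at weeks 2, 4, 8, 12 and 14. Jchain and Igkj1 differ by 0.36 to 2.55 over the weeks, while Ighg1, Pou2af1 and Mzb1 reach 5.70, 4.19 and 2.68 at week 14. The week 14 values of Ighg1, Ighm and Mzb1 are descriptions without a test.

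Within pristane mice, weeks 14 and 2 differed in 5 of 6 tested probe sets, all higher, with 11.3% of all probe sets called higher. The F test over the pristane weeks called 6 of 6, and 33.9% of all probe sets. Jchain rose by 5.23 (standard error 0.361, adjusted p = 1.5e-07), Igkj1 by 6.24 (standard error 0.456, adjusted p = 2.33e-07) and Pou2af1 by 4.84 (standard error 0.518, adjusted p = 6.22e-06). Already at week 8, Jchain was higher than at week 2 by 2.43 and Igkj1 by 3.23 (adjusted p = 0.00143 and 0.000438, with 0.46% called higher), and no other member passed. At week 12, 3 of the 6 were higher (Igkj1, Jchain and Pou2af1), where 6.18% of all probe sets were. Of the 9 that may have been named through their week 14 difference, Ighg1 and 4 of Ighm were higher as well. That count is a description, since high week 14 values may have chosen these 9. Ighg1 rose by 4.09 (standard error 0.659, adjusted p = 2.81e-05). Mzb1 and the 3 probe sets of Sdc1 did not pass, with 0.46 (adjusted p = 0.477) for Mzb1. Other markers moved between pristane weeks 14 and 2 as well: 7 of 9 T cell, 7 of 8 macrophage and 7 of 17 B cell genes rose, while 7 of 10 adrenal genes and 2 of 4 fat genes fell. Their part in the members' rise was not tested.

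The pristane effect over weeks 2 to 14 was tested for each probe set alone, so the 2 courses were not tested against each other. The F test of the effect called Pou2af1 (adjusted p = 2.38e-06), Ighm by 1452535_PM_at (adjusted p = 0.000107) and Sdc1 by its brightest probe set (adjusted p = 0.000934). It did not call Jchain (adjusted p = 0.247) or Igkj1 (adjusted p = 0.611), and 12.5% of all probe sets were called. For the effects at weeks 14 and 12, the calls depended on the groups in the fit. With these 4 groups alone limma called 0 of the 6 tested probe sets and 0 of 45037 in all, with 7136 at an unadjusted p under 0.05, and Pou2af1 had 2.63 (standard error 0.848, adjusted p = 0.105). In a single fit of all 11 groups 3 of 6 were called, with 3.28% of all probe sets called higher: Pou2af1 at the same 2.63 (adjusted p = 0.00105), Ighm by 1452535_PM_at at 1.98 (adjusted p = 0.000397) and Sdc1 by its brightest probe set at 0.92 (adjusted p = 0.012).

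In the order of the 11 group medians, the pristane groups of weeks 14 and 12 had the highest levels of all 7 genes. The lowest group was untreated week 0 for Jchain, Igkj1 and Sdc1, untreated week 2 for Ighm and Pou2af1, untreated week 4 for Ighg1 and untreated week 8 for Mzb1. For Jchain and Igkj1, untreated week 14 was next below them, above pristane week 8. In all 7 orders, each of the 10 pairs of neighbouring groups overlapped in their ranges.

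Jchain was set against Igkj1, Ighg1, Pou2af1, Mzb1 and Sdc1 over the mice of 3 groups. Of these 15 relations, 8 had an adjusted p under 0.05 for both Pearson's r and Spearman's rho, 4 of 5 in pristane week 14 and 2 of 5 in each group of week 12. Over the 9 pristane kidneys of week 14, Jchain and Igkj1 had a Pearson's r of 0.988 and a Spearman's rho of 0.933 (exact permutation test, two-sided, p = 0.00011 and 0.00075; adjusted over 15 relations, 0.000827 and 0.00562). Jchain and Ighg1 had r = 0.96 and rho = 0.883 (exact permutation p = 0.000187 and 0.00307; adjusted 0.000937 and 0.0115). Jchain and Pou2af1 had r = 0.905 and rho = 0.85 (exact permutation p = 0.000871 and 0.00607; adjusted 0.00218 and 0.0152). Jchain and Mzb1 had r = 0.887 and rho = 0.817 (exact permutation p = 0.00143 and 0.0108; adjusted 0.00306 and 0.0202). Without the 2 mice farthest from the Jchain median, r was 0.884, 0.828, 0.814 and 0.856. Jchain and Sdc1 had r = 0.67 and rho = 0.283 (exact permutation p = 0.0391 and 0.463; adjusted 0.0587 and 0.534), and r was -0.275 without those 2 mice, so that relation rests on them.

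In the 10 untreated kidneys of week 12, Jchain followed Igkj1 with r = 0.977 and rho = 0.952 (permutation p = 3e-05 and 0.00019; adjusted 0.00045 and 0.00285) and Ighg1 with r = 0.904 and rho = 0.894 (permutation p = 0.00036 and 0.00115; adjusted 0.00135 and 0.00575). Without the 2 farthest mice r was 0.943 and 0.783. With Pou2af1 it had r = 0.756 and rho = 0.596 (permutation p adjusted 0.00609 and 0.102), and 0.576 without the 2 farthest. With Mzb1 it had r = 0.604 and rho = 0.236 (permutation p adjusted 0.0868 and 0.552), and r turned to -0.149 without them. With Sdc1 it had r = -0.107 and rho = 0.0909 (permutation p adjusted 0.777 and 0.81). In the 8 pristane kidneys of week 12, Jchain and Igkj1 had r = 0.916 and rho = 0.905 (exact permutation p = 0.00062 and 0.00456; adjusted 0.00186 and 0.0137), and r was 0.815 without the 2 farthest. Jchain and Ighg1 had r = 0.453 and rho = 0.786 there (exact permutation p = 0.26 and 0.0279; adjusted 0.281 and 0.0465). For Pou2af1 they were 0.752 and 0.881 (exact permutation p adjusted 0.0377 and 0.0155), for Mzb1 0.573 and 0.69 (0.169 and 0.102) and for Sdc1 0.458 and 0.357 (0.281 and 0.487). These relations share the arrays, and each gene's values on an array share its normalization.

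**Figure D4:**
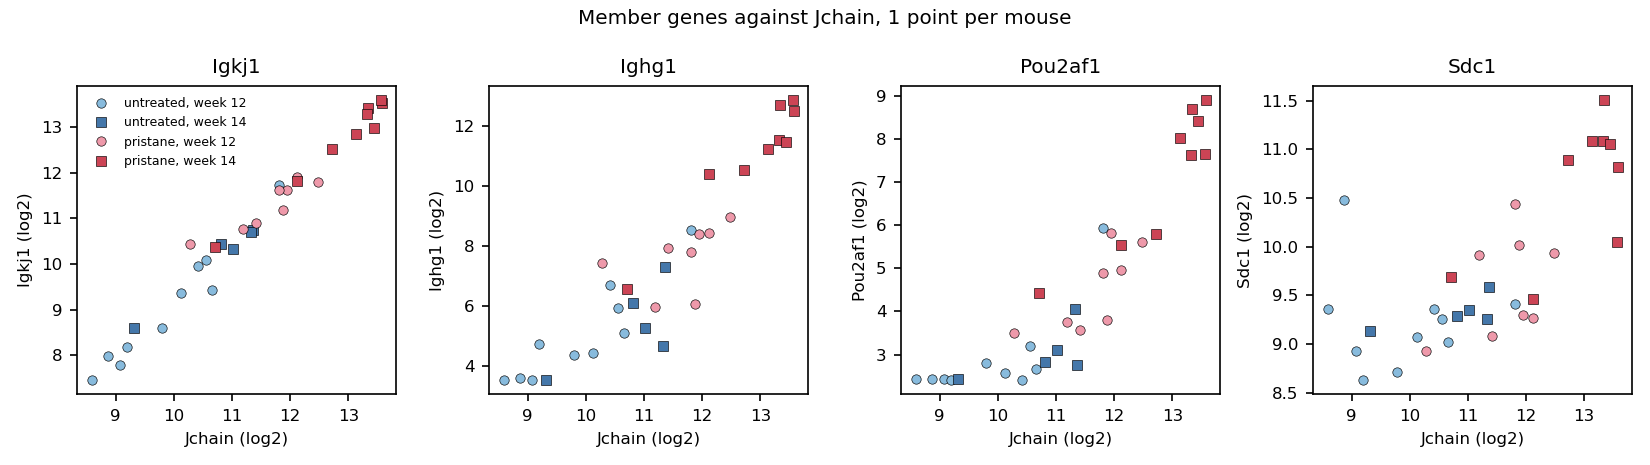
Igkj1, Ighg1, Pou2af1 and Sdc1 against Jchain (RMA values, log2), 1 point per mouse, circles for week 12 and squares for week 14, blue for untreated and red for pristane. Igkj1 follows Jchain over the whole range, Pou2af1 stays near 2.4 to 3.2 in most untreated kidneys up to a Jchain value of about 11, and Sdc1 scatters.

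Over all 95 arrays, after the mean of each group was removed, Jchain and Igkj1 had a Pearson's r of 0.935, and Pou2af1 and Mzb1 had 0.849. These correlations are a description. Outside the members, the genes most like Jchain were Iglv1 (0.679), Igkv1-117 (0.571), Igkv6-15 (0.502), Igkv15-103 (0.401) and Clu (0.396), 4 of them variable segments of light chains. The genes most like Igkj1 were Iglv1 (0.627), Igkv1-117 (0.555), Igkv6-15 (0.486), Cdv3 (0.402) and Pelo (0.402). Ighg1 was most like Iglv1 (0.748), Igkv1-117 (0.731), Igkv6-15 (0.69), Igkv19-93 (0.528) and Igkv9-120 (0.502). Pou2af1 was most like Igkv1-117 (0.774), Iglv1 (0.701), Igkv6-15 (0.677), Cd79b (0.589) and Tnfrsf13c (0.586). Mzb1 was most like Igkv9-120 (0.759), Igkv6-20 (0.743), Igkv1-117 (0.73), Igkv6-15 (0.725) and Iglv1 (0.673). Ighm was most like the B cell chemokine Cxcl13 (0.667), Iglv1 (0.654), Cd79b (0.651), Ccl8 (0.621) and Pcna (0.586). Sdc1 stood with other genes: Ckap4 (0.815), Lox (0.81), Tubb5 (0.806), Klf6 (0.805) and Man1c1 (0.803). Its highest r with another member was 0.44, with Ighm.

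Of 16 other genes of the immunoglobulin loci, 5 rose at week 14, 0 fell and 11 did not pass, with a median of 1.59 and 4.57% of all probe sets called higher. The 5 were Igkv1-117, by 4.16 (standard error 0.768, adjusted p = 0.0122), Igkv6-15, by 3.62 (adjusted p = 0.0273), Iglv1, by 2.92 (adjusted p = 0.0362), Igkv19-93, by 2.48 (adjusted p = 0.0473), and Igkv14-111, by 1.31 (adjusted p = 0.0342). Igkv1-117 had medians of 2.94 in untreated and 7.82 in pristane kidneys of week 14. Between untreated weeks 14 and 0, 2 of the 16 rose, where 8.78% of all probe sets were called higher.

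Of 17 genes of the plasma cell programme, 1 rose at week 14, with a median of 0.27, where 4.57% of all probe sets were called higher. It was Irf4, a factor that B cells need to become plasma cells and that T cells also use, by 2.49 (standard error 0.531, adjusted p = 0.0206). The defining regulators Prdm1 and Xbp1 had differences of 0.27 (standard error 0.16, adjusted p = 0.355) and 0.38 (standard error 0.123, adjusted p = 0.074). Both had medians of 5.46 to 7.44 in the groups of week 12, treated or not. Tnfrsf17, the receptor BCMA of plasma cells, had a median of 4.04 in both groups of week 14, a difference of 0.12 and an adjusted p = 0.495. Tnfrsf13b, the related receptor TACI, had 0.94 (adjusted p = 0.0602). Of 16 genes of the secretory pathway, 3 rose and 1 fell, with a median of 0.14.

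Of 17 B cell genes, 3 rose at week 14, where 4.57% of all probe sets were called higher. They were Cd72, by 3.32 (standard error 0.421, adjusted p = 0.00346), Blnk, by 0.87 (adjusted p = 0.0129), and Fcrla, by 0.50 (adjusted p = 0.0349). Cd72 and Blnk are also found in other leukocytes. Of the defining markers, Cd79b had 1.39 (adjusted p = 0.0659), Cd79a 0.85 (adjusted p = 0.118) and Ms4a1, or CD20, 0.78 (adjusted p = 0.0686). Ms4a1 lay at the floor in all 5 untreated kidneys, and its pristane median was 3.12. Pax5 had a median of 3.56 in both groups. Pou2f2, which encodes Oct-2, the octamer factor that Pou2af1 joins in B cells, had a median of 2.99 in both. The mean over the 17 genes ran from 3.28 to 3.35 in untreated and from 3.47 to 4.21 in pristane kidneys, and its part in the rise of the members was not tested. Of 7 germinal centre genes 1 rose, S1pr2, by 1.07 (adjusted p = 0.0185).

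Of 13 genes that draw or keep B cells and plasma cells, 10 rose at week 14, with a median of 2.05, against 4.57% of all probe sets. Cxcl13, the chemokine that attracts B cells, rose by 4.31 (standard error 0.715, adjusted p = 0.00836), Cxcl9 by 3.35 (adjusted p = 0.00884), and Tnfsf13b, or BAFF, which keeps B cells alive, by 2.05 (adjusted p = 0.0129). Among 10 genes that bind or carry antibodies, 6 rose. They include Fcgr1, a high-affinity IgG receptor, by 3.59 (standard error 0.411, adjusted p = 0.00179), and Pigr, which carries polymeric antibodies with J chain across epithelia, by 1.08 (standard error 0.286, adjusted p = 0.0402). At week 12, 0 genes of these lists passed, where only 11 of 45037 probe sets (0.0244%) were called higher. This 0 therefore does not show that the lists were unchanged.

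Markers of other leukocytes moved with the members at week 14. Of these, 6 of 9 T cell genes and 6 of 8 macrophage genes rose, against 4.57% of all probe sets. Mean levels of the T cell genes ran from 3.84 to 4.07 in untreated and from 4.32 to 6.18 in pristane kidneys, and those of macrophage genes from 4.83 to 5.25 and from 5.99 to 7.49. Their part in the members' rise was not tested. Of 7 kidney genes 1 fell, the salt transporter gene Slc12a3, by 1.08 (standard error 0.308, adjusted p = 0.0492). Of 10 adrenal, 4 fat and 4 blood genes 0 passed, and the alpha globin gene Hba-a1 had medians of 8.11 in untreated and 8.94 in pristane kidneys. Of 4 lymph node stroma genes 1 rose (Clu), and Glycam1, a gene of lymph node vessels, had a median of 4.21 in both groups.

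Some kidneys stood apart from their group. Untreated mouse 2 of week 12 was the highest of its group for Jchain, Igkj1, Ighg1, Ighm, Pou2af1 and Mzb1, with 11.82, 11.73, 8.53, 9.79, 5.94 and 5.63. In the same kidney Ms4a1 was 3.50, against 2.21 to 2.46 in the other 9. The mean level of the B cell genes was 3.58 in mouse 2 and highest in mouse 10, at 3.83. Untreated mouse 10 of week 12 had the highest macrophage level, 7.66 against 4.33 to 5.76, the highest T cell level, 5.62 against 3.81 to 4.39, and the highest Sdc1, 10.48, yet its Ighg1, at 3.62, was close to the 3.55 of week 0. In pristane mouse 2 of week 14, which was the lowest for Jchain, Igkj1, Ighg1, Ighm, Pou2af1 and Mzb1, the T cell level was 4.32, below the 4.81 to 6.18 of the other 8, and the macrophage level was 6.12, within their range. Without this mouse the differences of Igkj1 and Jchain were 2.84 and 2.38 (adjusted p = 0.00157 and 0.00207).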

How the data were processed

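Kidney RNA was labelled with the NuGEN Ovation Biotin system and hybridised to Affymetrix HT MG-430 PM plates. The authors normalized probe intensities with RMA, so the deposited values are log2. Of 45141 probe sets, 104 controls were left out. The members, gene lists and rules were chosen with earlier results of these data known. Genes were named from the array annotation (28898 probe sets with 1 symbol, 551 with several, 15588 not listed), and 11 members from the study's tables, of which 1999 rows each are held. Tables hold the authors' own fold changes and p-values, which were not used. A gene in a list was represented by its probe set with the highest mean.

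R 4.3.3 and limma 3.58.1 fitted the groups of each contrast alone, with empirical Bayes and Benjamini-Hochberg adjustment over 45037 probe sets. A probe set was called at an adjusted p under 0.05. Labels do not say whether mice shared cages or litters, so p-values measure the spread between these mice. Tested on simulated data with the spread of week 14, 91% of changes of 1.5 and 100% of changes of 3 on the log2 scale were recovered, and 37 of 228 called probe sets had been given no change. At week 2, 100% of both were recovered, and 17 of 217 called had no change. Both shares of calls without a change lie above the 0.05 of the call threshold. Changes were given only to probe sets above the 40th percentile of mean level, and Pou2af1 lies below it.

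Named were all members, a fixed set of B lineage, T cell and epithelial genes whatever their values, up to 3 called genes per list with the largest changes, and the 5 genes most like each member. Others (Igkv14-111, Krt18, Pax5, Hba-a1, Glycam1, Umod) were chosen after their values were seen. Replicate numbers recur across groups. Correlations of arrays with the same number over 5000 variable probe sets ran from -0.538 to 0.588, and in no week did all pairs exceed 0.1, so numbers were not used as pairs. Alternatives were other scalings, a filter at the 40th percentile, other variance models, stricter calls, a single fit of all groups, the replicate block, the mean of a gene's probe sets, leaving out each mouse and, added after seeing the data, week 2 in place of week 0.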

Additional observations from a re-analysis of the deposited data

Results flagged for a closer look

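Of 77 groups of values, each 1 gene in 1 group by its brightest probe set, 15 held a kidney far from the rest. Chance alone would give about 1 in 20 for normally spread values. The genes share the same mice and some low values repeat, so the count is not compared with that rate. In untreated kidneys of week 12, mouse 2 was highest at 9.79 for Ighm (next 7.53), 5.94 for Pou2af1 (next 3.20) and 5.63 for Mzb1 (next 4.41), and mouse 10 was highest at 10.48 for Sdc1 (next 9.41). In untreated kidneys of week 8, mouse 1 was highest at 8.56 for Ighm (next 6.85) and 4.87 for Pou2af1 (next 2.52), and mouse 8 at 3.80 for Ighg1 (next 3.57). The B cell gene Ms4a1 was 2.80 in mouse 1, against 2.21 to 2.52 in the other 9. Untreated mouse 2 of week 14 was lowest at 8.59 for Igkj1 (next 10.34) and 9.32 for Jchain (next 10.81). Pristane mouse 2 of week 14 was lowest at 6.58 for Ighg1 (next 10.39). Pristane mouse 10 of week 4 was highest at 4.85 for Pou2af1 (next 2.69), and pristane mouse 4 of week 4 at 9.68 for Sdc1 (next 9.29). Untreated mouse 9 of week 4 was lowest at 3.79 for Igkj1 (next 6.09), untreated mouse 8 of week 2 lowest at 8.74 for Sdc1 (next 9.12), and untreated mouse 3 of week 0 highest at 2.90 for Pou2af1 (next 2.43).

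The pristane effect differed between weeks 14 and 2, by limma's test of that difference, for Pou2af1 by 4.14, for Ighm (1452535_PM_at) by 2.30 and for Sdc1 (1415943_PM_at) by 1.23.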

How the results depend on the processing

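The rises of Jchain and Igkj1 in untreated kidneys passed in 9 of 9 alternatives and in 12 of 12 fits that left out a mouse. The week 14 call of Pou2af1 passed in 6 of 8 alternatives; it lies below the 40th percentile and was not in the filtered fit. With the replicate block over shared numbers, 0 of 6 were called at week 14 (Pou2af1 4.08, Igkj1 2.24, Jchain 1.81, Sdc1 1.19), from the 5 numbers both groups share, and 0 of 45037 probe sets were. At an adjusted p under 0.01 the count was 0 as well, with 0.724% of all probe sets higher. Sdc1 (1415943_PM_at) passed at week 14 in 3 of 14 fits that left out a mouse, Jchain in 6 and Igkj1 in 12. In a single fit of all 11 groups, 3 of 6 were called at week 12 (1.69% of all probe sets higher), 5 of 6 for the effect of week 14 against 2 (6.12%) and 3 of 6 for week 14 against 12 (3.28%). The 8 of 15 called at week 12 in that fit are a description, since 9 may have been named through week 14. The percentile filter gave 1 of 15 at weeks 2, 4 and 12 (0.574%, 0.4% and 0.13% of 27022 higher). Leaving out 1 mouse gave 0 to 1 of 15 at weeks 2 and 4, 0 to 2 of 6 and of 15 at week 12 and 1 to 5 of 6 at week 14. At week 14 the share of all probe sets called moved too, as given above. For the effect of week 14 against 2 it gave 3 to 5 of 6. The 5 came without pristane mouse 1 or 2, with 7.21% and 7.57% of all probe sets called higher, against 5.77% with all mice. Against 12 it gave 0 to 2, with 1 and 2 without these mice (0.87% and 1.27% higher). At week 12 without untreated mouse 10 the count was 1 of 15 (1.35% of all probe sets called).

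Differences near 0 changed sign without being called. Sdc1 (1415944_PM_at) was -0.077 at week 12 and -0.0053 between untreated weeks 14 and 0 with quantile normalization, -0.147 with week 2 in place of week 0, and Sdc1 as the mean of its probe sets was -0.023 at week 2. Leaving out a mouse gave ranges of -0.0499 to 0.0841 for Sdc1 (1415944_PM_at) at week 12, -0.0673 to 0.0227 for Sdc1 (1415943_PM_at) and -0.0352 to 0.0457 for Ighm (1452535_PM_at) at week 4, -0.0786 to 0.223 for Ighm between untreated weeks 14 and 0, and -0.0661 to 0.618 for Igkj1 in the effect of week 14 against 12. Values at the floor have no order, which limits 1 Ighm probe set (1427870_PM_x_at) on 49 of 95 arrays. Pou2af1, with a lowest value of 2.21, also had medians near the floor at weeks 2 and 4.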
